A study of Mus musculus with 2 samples.

Results

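The 42 genes described here encode the isozymes, transporters and regulators of glycolysis, gluconeogenesis and glycogen metabolism. They were taken from a list of mouse symbols and matched through GENCODE M21 to the features of the deposited tables, where all 42 were found among 47442 features. The tables hold liver RNA sequencing of mice labelled C57BL/6, aged 8 to 9 weeks, taken 10 days after an adenovirus had been given by tail vein. Control mice received virus with β-galactosidase (β-Gal), an enzyme of bacteria that serves as a neutral cargo. The second group received virus with GBP5, a GTPase of the guanylate-binding family that interferon induces. Each group was 1 library, so there was no replicate and no test, and every comparison is between these 2 libraries. The number of animals in a library, their feeding state, the hour of collection, the promoter of the virus and the species of its GBP5 are not stated in the labels. Both groups received a virus, and no uninjected liver was analysed here. The question stated in the title of the series is whether GBP5 made in excess in the liver leads to injury and inflammation, and glucose metabolism was not its stated subject.

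Hepatocytes take up glucose and store it as glycogen after a meal, and in fasting they break glycogen down and make new glucose, which they release. Adult hepatocytes use their own forms of several enzymes for this, such as liver pyruvate kinase and the glucose transporter GLUT2. Other forms of the same enzymes serve in muscle, brain, blood cells, fetal liver and dividing cells. The 42 genes were therefore put in 3 classes. In the first were 13 genes of adult liver forms, in the second 17 genes of widespread, muscle, brain or fetal forms, and in the third 12 genes of shared steps, most of which have no separate liver form. The shared class also holds the mitochondrial carboxykinase gene Pck2 and the muscle enolase gene Eno3, whereas the neuronal enolase gene Eno2 is in the widespread class.

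Levels are FPKM, that is, reads corrected for the length of the transcript and the size of the library. The whole-number steps of the FPKM gave totals of 18405429 assigned reads for β-Gal and 17205716 for GBP5. All 12 defining hepatocyte markers were detected in both libraries, at a summed 97409 and 55056 FPKM, of which albumin (Alb) made up 74174 and 43416 FPKM. Mouse Gbp5 itself was at 4.24 FPKM with β-Gal and 19.1 with GBP5, where reads of the mouse gene and of a viral insert cannot be told apart. Most features were above parity in the GBP5 library, and the median FPKM ratio of 11828 features with at least 1 FPKM in both was 1.45, or 0.53 on the log2 scale. Differences are therefore given as deposited and also "rescaled", with the GBP5 library divided by that median. A gene was called higher or lower where 1 was added to each FPKM and the log2 ratio of GBP5 to β-Gal reached 1 or -1, which is 2-fold, and it had at least 1 FPKM in either library. Folds of single genes are plain FPKM ratios, with a 95% interval from the reads that covers counting error only.

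Most adult liver forms were lower in the GBP5 library and most of the widespread forms were higher. Of the 13 adult liver forms, 8 were lower by 2-fold or more as deposited and none was higher, against a background of 5.56% lower and 19.2% higher among all 13599 measured features. After rescaling 10 were lower and none higher, against 9.75% lower and 7.32% higher among 13092 features. Of the 16 measured widespread forms, 9 were higher and 1 was lower as deposited, and 6 were higher and 1 lower after rescaling. The 12 genes of shared steps had 2 higher and 1 lower, before and after rescaling. Over the 41 measured genes this made 11 higher and 10 lower as deposited, and 8 higher and 12 lower after rescaling.

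The median log2 ratio was -1.07 in the adult liver class, 1.23 in the widespread class and 0.47 in the shared class, where the median of all features was 0.48. After rescaling these medians were -1.60, 0.73 and -0.06, and that of all features was 0.01. In FPKM, the adult liver forms summed to 4176 with β-Gal and 1515 with GBP5, and the widespread forms to 265 and 983. The shared class summed to 4389 and 6035. The summed widespread forms were thus below the summed liver forms in both libraries, by a smaller margin in the GBP5 library. Of the 42 genes, 41 passed the filter of 1 FPKM. The other was Eno2, the enolase of neurons, with 3 and 6 reads. Fbp2 and Eno1b passed only through the GBP5 library, so a call for them could go in 1 direction only.

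**Figure D1:**
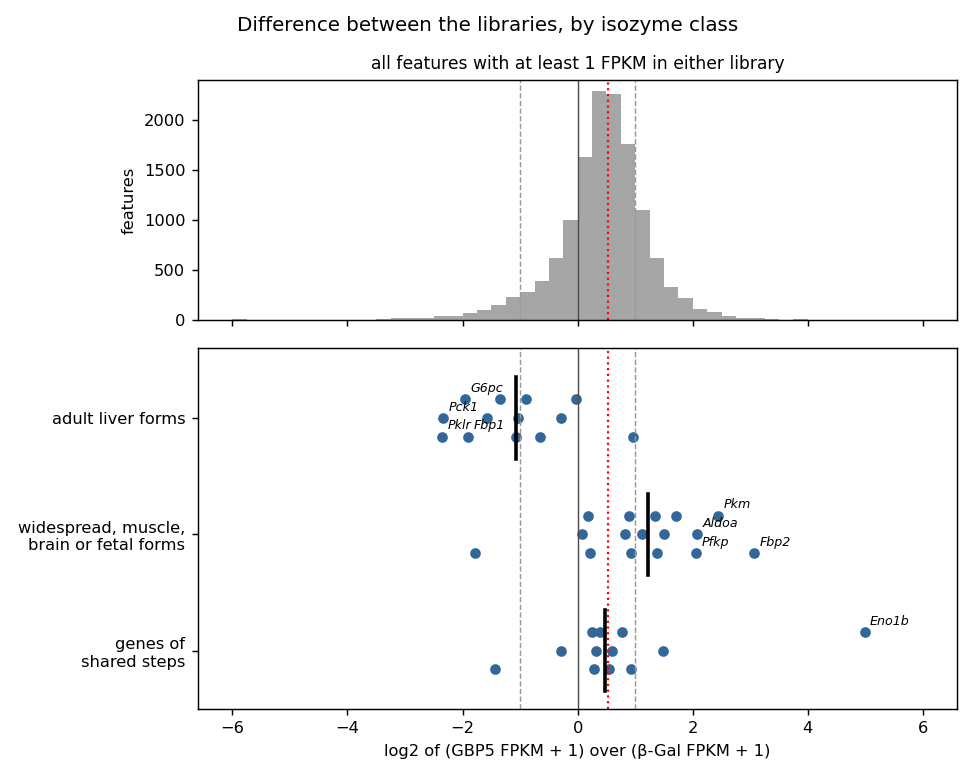
Log2 ratio of the libraries for all features (top, number of features per bin of 0.25, values beyond 6 or -6 put in the outermost bins) and for the measured genes of each class (bottom, 1 point a gene, spread vertically for legibility). Black bars mark class medians of -1.07, 1.23 and 0.47, dashed lines the 2-fold limits, and the red dotted line the log2 median ratio of 0.53; adult liver forms lie mostly left of parity and widespread forms mostly right of it.

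**Figure D2:**
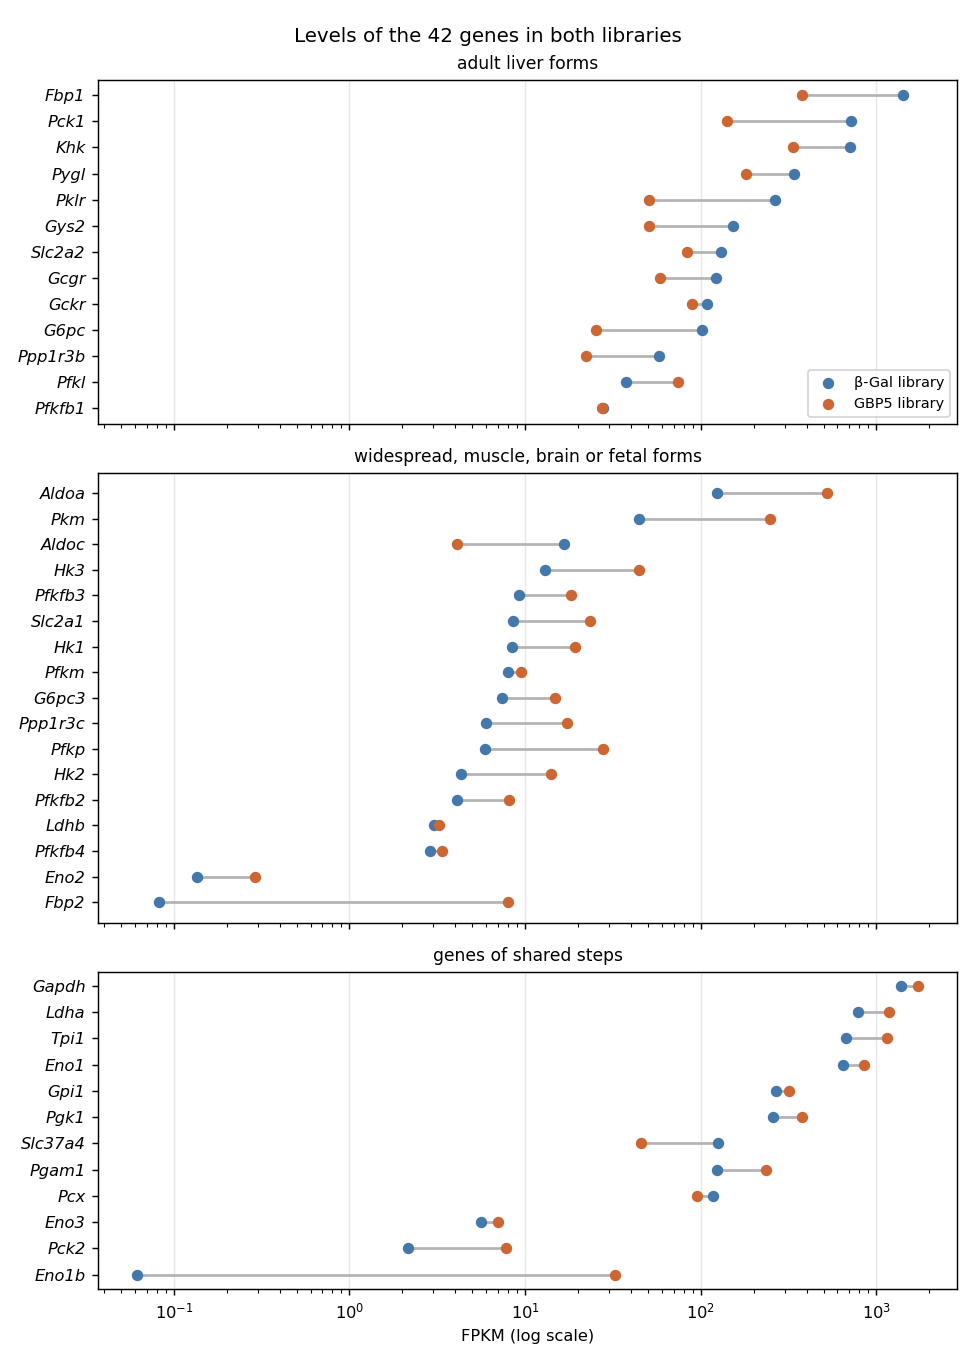
FPKM of each of the 42 genes in the β-Gal library (blue) and the GBP5 library (orange) on a log axis, 1 library a point and a grey line joining the pair. In the adult liver class the orange point is left of the blue in 12 of 13 genes, the exception being Pfkl, and in the widespread class it is right of the blue in all but Aldoc.

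Glucose enters hepatocytes through GLUT2, encoded by Slc2a2, and most other cells through GLUT1, encoded by Slc2a1. Slc2a2 was at 131 FPKM with β-Gal and 83.1 FPKM with GBP5, 1.58-fold lower (interval 1.52 to 1.64), which passed 2-fold only after rescaling (log2 ratio -1.18). Slc2a1 was at 8.53 and 23.3 FPKM, 2.73-fold higher (interval 2.05 to 3.68), and passed 2-fold as deposited but not after rescaling (log2 ratio 0.84). The liver form remained the more abundant of the pair, and its share of their summed FPKM went from 93.9% to 78.1%.

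Hexokinases trap glucose in the cell by phosphorylating it. The 3 low-Km hexokinases measured were all higher in the GBP5 library. Hk1, the form of brain and red cells, was at 8.38 and 19.3 FPKM, 2.30-fold higher (interval 1.94 to 2.73). Hk2, the form of muscle and many dividing cells, was at 4.32 and 14.0 FPKM, 3.24-fold higher (interval 2.74 to 3.85). Hk3, which blood cells of the myeloid line express, was at 12.9 and 44.4 FPKM, 3.43-fold higher (interval 3.10 to 3.80). Hk1 no longer passed 2-fold after rescaling, and Hk2 and Hk3 did, with log2 ratios of 1.01 and 1.18. Their summed FPKM was 25.6 with β-Gal and 77.6 with GBP5. Gckr, which encodes the hepatocyte protein that holds the liver hexokinase inactive in the nucleus, was at 109 and 89.5 FPKM, 1.22-fold lower (interval 1.15 to 1.29), which did not pass 2-fold on either scale.

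Phosphofructokinase commits sugar to glycolysis, and its subunits are named for liver, muscle and platelets. The liver gene Pfkl went against its class. It was at 37.3 and 74.0 FPKM, 1.98-fold higher (interval 1.83 to 2.15), with a log2 ratio of 0.97 that fell just short of the limit and became 0.44 after rescaling. The platelet gene Pfkp was at 5.94 and 27.9 FPKM, 4.70-fold higher (interval 4.0 to 5.55), and was called on both scales. The muscle gene Pfkm was at 7.99 and 9.45 FPKM, a ratio of 1.18 (interval 1.03 to 1.35), below the median of all features. The share of Pfkl in the summed FPKM of the 3 genes was 72.8% with β-Gal and 66.5% with GBP5, while that of Pfkp went from 11.6% to 25.0%.

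The PFKFB enzymes make and break down fructose 2,6-bisphosphate, the allosteric activator of phosphofructokinase. None of the 4 genes passed 2-fold. The liver gene Pfkfb1 was at 27.8 and 27.3 FPKM, a GBP5 to β-Gal ratio of 0.981 (interval 0.879 to 1.10). Pfkfb2, the heart form, was at 4.11 and 8.08 FPKM and the inducible form Pfkfb3 at 9.29 and 18.1 FPKM. Pfkfb2 was 1.97-fold higher (interval 1.64 to 2.36) and Pfkfb3 1.95-fold higher (interval 1.72 to 2.22). Pfkfb4, first known from testis, was at 2.86 and 3.36 FPKM, and its ratio of 1.18 had an interval of 0.876 to 1.58, so a difference was not detectable at this depth.

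Aldolase splits the sugar bisphosphate. Aldoa, the form of muscle and most other tissues, was at 123 and 521 FPKM, 4.24-fold higher (interval 4.05 to 4.44), with log2 ratios of 2.07 as deposited and 1.54 rescaled. Aldoc, the form of brain, was the widespread gene that was lower, at 16.7 and 4.11 FPKM, 4.06-fold lower (interval 3.18 to 5.23). The 2 genes thus differed in opposite directions, and their ratio within a library went from 7.38 to 127.

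The isomerase Gpi1 and the enzymes that follow aldolase, down to phosphoglycerate mutase, have no separate liver form and did not pass 2-fold. Gapdh was at 1385 and 1734 FPKM (1.25-fold, interval 1.23 to 1.27), and Tpi1, triosephosphate isomerase, at 674 and 1149 FPKM (1.70-fold, interval 1.66 to 1.75). Pgk1, phosphoglycerate kinase, was at 258 and 378 FPKM (1.46-fold, interval 1.42 to 1.51), and Pgam1, phosphoglycerate mutase, at 123 and 235 FPKM (1.91-fold, interval 1.84 to 1.98). Gpi1, which converts glucose 6-phosphate to fructose 6-phosphate, was at 268 and 317 FPKM (1.18-fold, interval 1.14 to 1.23). Their rescaled log2 ratios lay between -0.29 for Gpi1 and 0.40 for Pgam1. Gapdh, Pgk1, Pgam1 and Ldha have near-identical copies in the genome, so their reads may be split. Among annotated copies, Pgam1-ps2 had 6 and 19 reads, and Pgk1-rs7 had at least 9 and 11.

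Enolase makes phosphoenolpyruvate. Its main gene Eno1 was at 647 and 847 FPKM, 1.31-fold higher (interval 1.28 to 1.34), and the muscle gene Eno3 at 5.58 and 7.03 FPKM, a ratio of 1.26 whose interval of 0.942 to 1.69 included parity. Eno1b, a copy of Eno1 at another locus, had 2 reads with β-Gal and 987 with GBP5, at 0.0618 and 32.6 FPKM. The ratio was 528 (interval 146 to 4365), which ranked 12 of 13599 features by log2 ratio from the highest. Reads of Eno1 and Eno1b can be assigned to the wrong copy because the genes are closely alike, so the split is uncertain. Their sum was 647 and 880 FPKM, of which Eno1b was 0.00956% and 3.71%.

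Of the pairs compared below, only pyruvate kinase, the last step of glycolysis, had a different more abundant form in each library. Whether the same cells carried both forms was not tested. Pklr, on chromosome 3 at 89136142 to 89146784 of GRCm38, encodes the form of liver and red cells and had 263 FPKM with β-Gal and 50.4 FPKM with GBP5. Pkm, on chromosome 9 at 59656368 to 59679375, encodes the form of muscle, fetal and dividing cells and was at 44.7 and 246 FPKM. Pklr was thus 5.22-fold lower (interval 4.90 to 5.56) and Pkm 5.51-fold higher (interval 5.25 to 5.78), both called on both scales. The summed FPKM of the pair was 308 and 297, a log2 ratio of -0.58 after rescaling, while the share of Pkm in it went from 14.5% to 83.0%. In reads, Pklr had 6508 and 1166, and Pkm at least 2003 and 10309. The tables hold 1 value a gene, so the splice forms M1 and M2 of Pkm could not be separated.

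Lactate dehydrogenase turns pyruvate into lactate and back. Ldha, the main form in liver and muscle, was at 783 and 1186 FPKM, 1.52-fold higher (interval 1.48 to 1.55), close to the median of all features, with a rescaled log2 ratio of 0.07. Ldhb, the heart form, had 47 reads in each library (3.01 and 3.22 FPKM), and no difference was detectable at this depth.

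Most genes of gluconeogenesis and glucose release were lower in the GBP5 library. Pck1, the cytosolic phosphoenolpyruvate carboxykinase that hormones of fasting induce, was at 718 and 141 FPKM, 5.09-fold lower (interval 4.93 to 5.26). Fbp1, fructose bisphosphatase of liver and kidney, was at 1410 and 376 FPKM, 3.75-fold lower (interval 3.65 to 3.86). G6pc, the catalytic subunit of glucose 6-phosphatase, was at 101 and 25.3 FPKM, 4.01-fold lower (interval 3.74 to 4.29). Slc37a4, which carries glucose 6-phosphate into the endoplasmic reticulum for that enzyme, was at 126 and 45.9 FPKM, 2.75-fold lower (interval 2.6 to 2.91). All 4 were called lower on both scales, with rescaled log2 ratios from -2.87 for Pck1 to -1.96 for Slc37a4. Pcx, pyruvate carboxylase, the entry step, was at 117 and 95.4 FPKM, 1.23-fold lower (interval 1.19 to 1.27), and was not called.

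Of the other forms of these enzymes, Pck2 and Fbp2 were called higher on both scales and G6pc3 on neither. Pck2, the mitochondrial carboxykinase, was at 2.14 and 7.83 FPKM, 3.66-fold higher (interval 2.77 to 4.88). G6pc3, the phosphatase subunit of most tissues, was at 7.38 and 14.9 FPKM, a ratio of 2.01 (interval 1.62 to 2.52) and its log2 ratio of 0.92, computed with 1 added to each FPKM, did not reach the limit. Fbp2, the fructose bisphosphatase of muscle, had 2 reads with β-Gal and 183 with GBP5, at 0.0820 and 8.03 FPKM. Its ratio was 97.9 (interval 26.7 to 814), which ranked 65 of 13599 features. Fbp2 and Fbp1 are neighbours on chromosome 13, both on the minus strand, at 62836877 to 62858422 and 62864753 to 62888282 with 6330 bases between them, and they differed in opposite directions. Fbp1 still made up 97.9% of the FPKM of the pair in the GBP5 library. Among skeletal and heart muscle markers, 4 of 10 were at 0 in both libraries and the list summed to 1.45 and 5.63 FPKM. Of the 2 that reached 1 FPKM, Acta1 had 3 and 79 reads and Mylpf 9 and 12. The part of muscle RNA in the values of Fbp2 was not tested.

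Glycogen is made by glycogen synthase and broken down by glycogen phosphorylase, and targeting subunits bring protein phosphatase 1 to it to switch both. Gys2, the synthase of liver, was at 153 and 50.6 FPKM, 3.02-fold lower (interval 2.84 to 3.22). Pygl, the phosphorylase of liver, was at 340 and 182 FPKM, 1.87-fold lower (interval 1.81 to 1.94), and was called only after rescaling (log2 ratio -1.43). The liver targeting subunit gene Ppp1r3b was at 57.9 and 22.1 FPKM, 2.62-fold lower (interval 2.48 to 2.78). Ppp1r3c, the targeting subunit of many tissues, was at 5.99 and 17.3 FPKM, 2.88-fold higher (interval 2.52 to 3.30), a call lost after rescaling (log2 ratio 0.89). The share of Ppp1r3b in the summed FPKM of the pair went from 90.6% to 56.1%.

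Gcgr, the receptor for glucagon, was at 122 and 58.7 FPKM, 2.07-fold lower (interval 1.96 to 2.19). Khk, ketohexokinase, by which fructose enters metabolism in liver, was at 705 and 335 FPKM, 2.11-fold lower (interval 2.04 to 2.17). Both were called on both scales, although Gcgr was close to the limit as deposited, with a log2 ratio of -1.04.

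The ratio of a liver form to another form of the same enzyme within a library does not change with any scaling of that library. In 10 of the 11 pairs examined this ratio was lower in the GBP5 library, and in 8 the shift was at least 2-fold. The pairs are not separate observations, because Pfkfb1 and Pfkl recur among them. Fbp2 passed the filter only through the GBP5 library, so its pair adds little to these counts. For Pklr over Pkm the ratio went from 5.88 to 0.205, a shift of 28.7-fold (interval 26.5 to 31.1), and Pklr/Pkm was the pair in which the more abundant form changed. For Pck1 over Pck2 the shift was 18.6-fold (interval 14.1 to 24.9), for G6pc over G6pc3 it was 8.07-fold (interval 6.41 to 10.2) and for Ppp1r3b over Ppp1r3c 7.57-fold (interval 6.54 to 8.77). For Slc2a2 over Slc2a1 it was 4.30-fold (interval 3.22 to 5.81). The Fbp1 to Fbp2 shift of 367-fold rested on 2 reads of Fbp2 in the β-Gal library, and its interval ran from 100.2 to 3056.

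Shifts in the phosphofructokinase and PFKFB pairs were smaller. Pfkl over Pfkp shifted by 2.37-fold (interval 1.97 to 2.85) and Pfkfb1 over Pfkfb2 by 2.0-fold (interval 1.62 to 2.49). Pfkfb1 over Pfkfb3 shifted by 1.99-fold (interval 1.68 to 2.36), and for Pfkfb1 over Pfkfb4 the 1.2-fold shift had an interval of 0.874 to 1.64. Pfkl over Pfkm was the exception and went the other way, from 4.67 to 7.84. Levels of different genes depend on the transcript length that the authors used, a mean over isoforms for many genes, so the ratio in each library is approximate, whereas its shift between libraries is not affected by length.

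**Figure D3:**
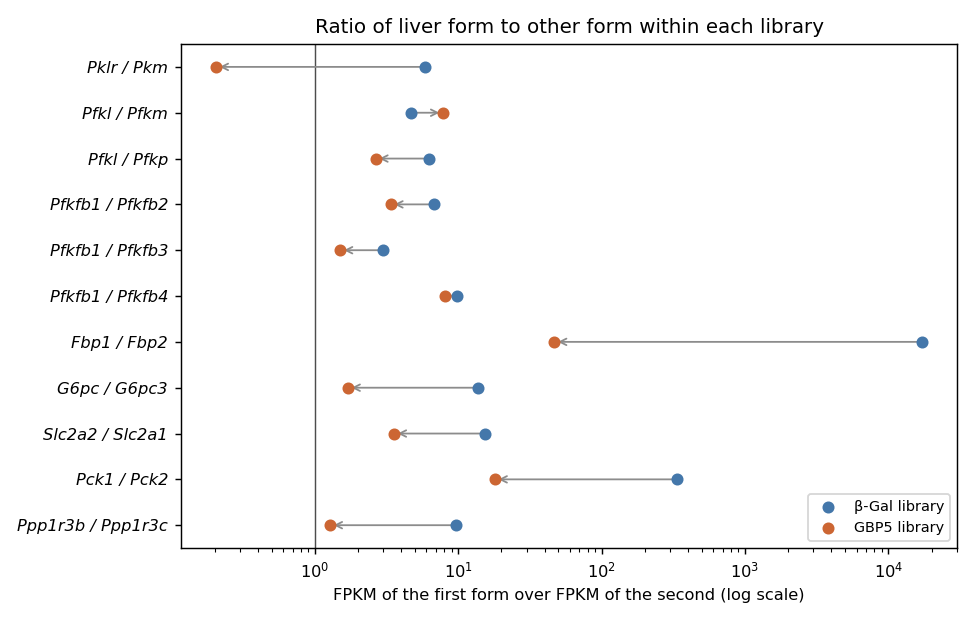
FPKM of the liver form over FPKM of the other form of the same enzyme, in the β-Gal library (blue) and the GBP5 library (orange), on a log axis; Pck1 is the cytosolic and Pck2 the mitochondrial form. Arrows run from the β-Gal to the GBP5 library and point left in 10 of 11 pairs, and the vertical line marks equal FPKM, which the Pklr/Pkm pair crosses.

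The DNA before the start sites is shown for the liver and the other form of 3 enzymes, as examples. In each of them, as in 10 of the 11 pairs above, the ratio of liver form to other form was lower with GBP5. Each stretch is the 250 bases before a RefSeq start site on GRCm38.p6, read on the strand of the gene. Capitals mark exact matches on either strand to any of 8 motifs searched. The core of the hypoxia response element was searched as ACGTG. The E-box was searched as CACGTG, which contains that core on both strands. The carbohydrate response element, which the factor ChREBP binds, and the HNF1 site were searched as 1 form each. The cyclic AMP response element was searched as TGACGTCA, the FOXO site as GTAAACA, the HNF4 site as CAAAGTCCA and the TATA box as TATAAA.
Pklr, chr3:89136373-89136622, plus strand: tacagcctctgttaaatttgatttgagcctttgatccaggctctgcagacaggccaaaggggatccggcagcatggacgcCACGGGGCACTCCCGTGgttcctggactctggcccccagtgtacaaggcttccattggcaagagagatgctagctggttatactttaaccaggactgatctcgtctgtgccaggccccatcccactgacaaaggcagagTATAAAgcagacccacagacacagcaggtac
Pkm, chr9:59656977-59657226, plus strand: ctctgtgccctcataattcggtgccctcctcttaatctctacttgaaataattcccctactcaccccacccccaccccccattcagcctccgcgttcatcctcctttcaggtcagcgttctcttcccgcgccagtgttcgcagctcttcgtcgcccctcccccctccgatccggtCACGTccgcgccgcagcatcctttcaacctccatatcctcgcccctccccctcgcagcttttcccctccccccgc
G6pc, chr11:101367466-101367715, plus strand: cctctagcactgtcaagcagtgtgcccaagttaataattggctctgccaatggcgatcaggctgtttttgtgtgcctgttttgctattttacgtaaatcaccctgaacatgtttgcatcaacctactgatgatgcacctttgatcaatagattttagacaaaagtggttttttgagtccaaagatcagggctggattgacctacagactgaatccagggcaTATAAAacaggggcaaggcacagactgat
G6pc3, chr11:102189449-102189698, plus strand: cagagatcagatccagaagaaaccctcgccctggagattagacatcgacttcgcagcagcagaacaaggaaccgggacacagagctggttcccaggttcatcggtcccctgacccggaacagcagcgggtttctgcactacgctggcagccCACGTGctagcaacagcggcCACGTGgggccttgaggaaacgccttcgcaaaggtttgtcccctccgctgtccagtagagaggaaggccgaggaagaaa
Fbp1, chr13:62888283-62888532, minus strand: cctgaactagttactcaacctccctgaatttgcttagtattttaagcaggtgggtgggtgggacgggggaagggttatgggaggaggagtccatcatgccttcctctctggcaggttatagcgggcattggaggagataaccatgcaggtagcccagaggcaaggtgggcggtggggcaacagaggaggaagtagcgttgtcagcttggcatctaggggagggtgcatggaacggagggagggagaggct
Fbp2, chr13:62858401-62858650, minus strand: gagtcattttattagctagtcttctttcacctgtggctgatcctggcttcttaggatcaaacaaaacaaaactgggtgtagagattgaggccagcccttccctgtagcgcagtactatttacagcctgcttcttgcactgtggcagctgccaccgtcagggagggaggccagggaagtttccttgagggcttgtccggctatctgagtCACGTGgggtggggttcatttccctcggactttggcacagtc

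The Pklr stretch held the match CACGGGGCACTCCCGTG to the carbohydrate response form, beginning 170 bases before the start site, and a TATA box. That form was found in 15 of 32851 windows of 300 bases in the whole table, or 0.0457%, and among the windows of the 42 genes only in this one. The G6pc stretch held a TATA box and none of the other searched forms, and the Fbp1 stretch held none of the 8. The windows of Pck1 and Pck2, a pair not shown, held none of the 8 either. G6pc3 had 2 E-boxes and Fbp2 had 1, and the Pkm window had the ACGTG core on the minus strand 75 bases before the start, and again just after the start. A second Pkm window and a second Pklr window, at other start sites, held none of the 8 motifs. In the whole table the E-box was in 7.15% of windows and the TATA box in 13.6%. Among the 60 windows of the 42 genes the exact cyclic AMP form was found at Ldha and the exact FOXO form at Aldoc. These forms were in 1.79% and 3.65% of all windows. Only exact forms were searched, so variants such as TTACGTCA in the Pck1 window were not counted. The HNF4 and HNF1 forms were found in none of the 60, against 0.475% and 0.00913% of all windows.

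Windows were available for 39 of the 42 genes. ACGTG occurred in 2 of 11 adult liver genes, in 13 of 17 widespread genes and in 5 of 11 genes of shared steps, against 21.8% of 27025 genes in the table and 31.7% of 10038 genes with at least 15 CpG. Of the genes called higher as deposited, 8 of 10 with a window held it (Hk1, Hk2, Hk3, Aldoa, Pkm, Fbp2, Slc2a1 and Ppp1r3c). Of those called lower, 2 of 8 did (Khk and Aldoc), and 10 of 20 of those called neither did. Over all genes the shares were 27.6% of those called higher, 17.8% of those called lower and 29.8% of those called neither. All these shares use calls as deposited and were not counted after rescaling. Rescaling ended the calls of Hk1, Slc2a1 and Ppp1r3c and made Slc2a2 and Pygl lower. A gene counted if any of its windows held ACGTG. The 39 genes had 60 windows and the 27025 genes 32851, so the shares are not strictly comparable. The matches of Hk1 lay after its start site, and Fbp2 could be called in 1 direction only. The windows of the widespread class had a median of 15.5 CpG, and those of the adult liver class 6, against 7 in the whole table.

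Other genes of these pathways were taken from lists, and the 2 highest and 2 lowest of each list by log2 ratio are given, in FPKM of the β-Gal and then of the GBP5 library. The list counts stand beside 19.2% higher and 5.56% lower among all measured features as deposited. After rescaling those shares were 7.32% and 9.75%. Among 19 measured genes of glycogen metabolism outside the 42, 2 were higher and none lower as deposited, and 1 was higher and 1 lower after rescaling. Pygb, the phosphorylase of brain and fetal liver, was at 14.8 and 59.3 FPKM, 4.0-fold higher (interval 3.56 to 4.51), and Pgm2, a phosphoglucomutase family gene, at 9.00 and 27.1 FPKM. Ppp1r3e, another targeting subunit, was at 3.29 and 1.65 FPKM, and Epm2a, the glycogen phosphatase laforin, at 4.10 and 2.98 FPKM. The median of this list, 0.58, was near that of all features. Pygb was thus higher while Pygl, the liver phosphorylase, was lower.

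Of 10 measured genes of glucose and lactate transport, 2 were higher and 2 lower as deposited, beside 19.2% and 5.56% of all features. The monocarboxylate transporters Slc16a1 and Slc16a3 move lactate. Slc16a1 was at 7.39 and 30.5 FPKM, and Slc16a3 at 3.73 and 11.6 FPKM. The insulin-responsive glucose transporter gene Slc2a4 was at 5.87 and 0.737 FPKM, 7.97-fold lower, and the fructose transporter gene Slc2a5 at 12.9 and 4.23 FPKM. Slc2a4 passed the filter only through the β-Gal library, so its call too could go in 1 direction only. After rescaling 1 gene of the list was higher and 3 were lower.

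Among 18 genes of other glycolytic steps and sugar entry, 4 were higher and 1 lower (3 and 3 after rescaling). Hkdc1, which encodes a further hexokinase-like protein, had 11 reads with β-Gal and 466 with GBP5, 45.3-fold higher (interval 25.1 to 91.4). At 0.377 and 17.1 FPKM it passed the filter only through the GBP5 library, so its call could go in 1 direction only. Sord, sorbitol dehydrogenase, was at 645 and 240 FPKM, and Ldhd, the dehydrogenase of D-lactate, at 60.7 and 33.5 FPKM. Genes of pyruvate entry into mitochondria and oxidation by pyruvate dehydrogenase had 2 of 14 higher and 1 lower (2 and 3 after rescaling). Among all features 19.2% were higher and 5.56% lower as deposited, so the counts of these 2 lists were near those shares. The pyruvate dehydrogenase kinases, which switch that enzyme off, differed among themselves. Pdk4 was at 3.14 and 35.1 FPKM and Pdk3 at 2.46 and 9.85, whereas Pdk1 was at 59.6 and 25.1 and Pdk2 at 101 and 54.0.

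Regulators and target genes of fasting metabolism had none of 25 higher and 4 lower (0 and 6 after rescaling). The lowest were enzyme genes that hormones of fasting induce, Sds, serine dehydratase, at 75.2 and 23.6 FPKM, and Tat, tyrosine aminotransferase, at 471 and 160 FPKM. The others called lower were the factor genes Cebpa, at 188 and 81.2 FPKM, and Klf15, at 59.0 and 26.4 FPKM, both named after their values were seen. The highest were the coactivator and factor genes Crtc3 and Creb1, at 5.45 and 9.83 and at 8.68 and 15.3 FPKM, neither past 2-fold. Regulators and target genes of the response to insulin and carbohydrate had none of 15 higher and 3 lower (0 and 4 after rescaling). Srebf1, which encodes the SREBP1 factors, was at 291 and 72.1 FPKM, and Thrsp, a lipogenic gene that carbohydrate induces, at 473 and 56.6 FPKM. The lower gene besides these was Mlxipl, named after its value was seen because it encodes ChREBP, the factor of the carbohydrate response element found before Pklr. Mlxipl was at 88.6 and 35.3 FPKM. Binding of ChREBP to that element, and its part in the level of Pklr, were not tested. The highest of the list were Mlxip and Irs1, at 3.23 and 6.81 and at 0.743 and 1.65 FPKM.

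Hypoxia regulators and targets outside glycolysis had 7 of 17 higher and none lower as deposited, but 2 higher and 1 lower after rescaling. Among all features 19.2% were higher as deposited and 7.32% after rescaling. Car9, 1 of the 7 and named after its value was seen, was at 0.191 and 1.84 FPKM. It passed the filter only through the GBP5 library, so its call could go in 1 direction only. Ddit4, an inhibitor of mTORC1 signalling, was at 9.00 and 55.5 FPKM and the growth factor gene Myc at 5.87 and 18.5 FPKM. Vegfa, a target in many tissues, was at 73.8 and 45.8 FPKM, and Bnip3 at 414 and 402 FPKM, a ratio of 0.972 (interval 0.935 to 1.01). Hif1a, named after its value was seen, was at 17.9 and 43.0 FPKM. The 2 genes still higher after rescaling were Ddit4 and Myc, with log2 ratios of 1.98 and 1.00, so Hif1a was called only as deposited.

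**Figure D4:**
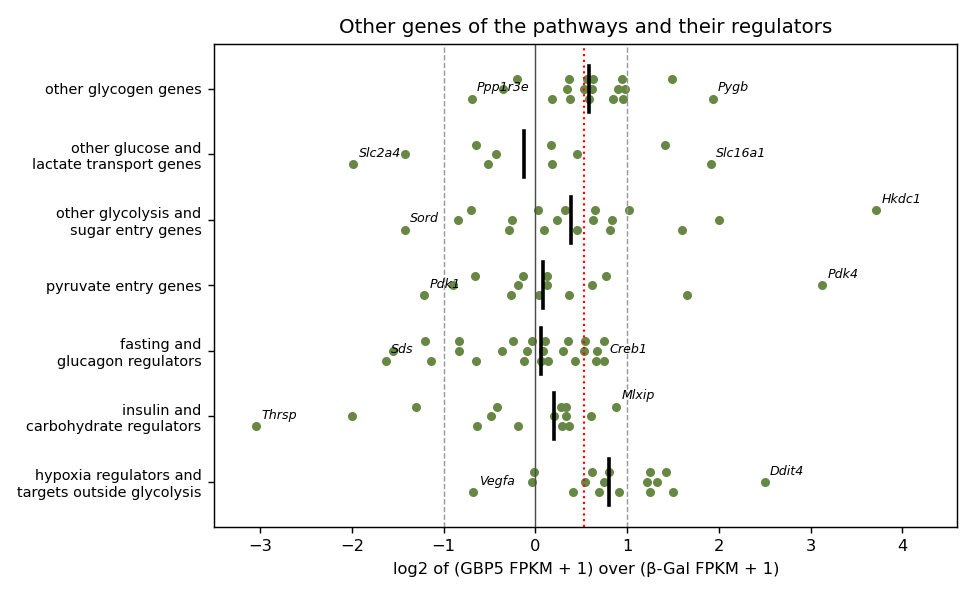
Log2 ratio of the libraries for the measured genes of 7 lists of other pathway genes and regulators, 1 point a gene, with the lowest and the highest gene of each list named. Black bars are list medians, dashed lines the 2-fold limits, and the red dotted line the log2 median ratio of 0.53 of features measured in both libraries; Hkdc1 and Pdk4 lie farthest right and Thrsp farthest left.

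Markers of several other cell types and states also differed between the libraries. The marker counts stand beside 19.2% higher and 5.56% lower among all measured features as deposited, and 7.32% and 9.75% after rescaling. In bulk liver, fewer hepatocytes and less RNA per hepatocyte cannot be told apart, and the same holds for the cells that carry the widespread forms. Hepatocyte markers had 5 of 12 lower and none higher (10 lower when rescaled). Their median was -0.85 as deposited and -1.38 rescaled, so the adult liver class and the general hepatocyte markers were lower together. They ranged from Cyp2e1, 7.11-fold lower, and Fgb, 3.16-fold lower, to Hnf4a and Apob at ratios of 0.916 and 1.04.

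Leukocyte markers had 8 of 12 higher and none lower, or 2 and 0 when rescaled. They summed to 482 and 1044 FPKM. The T cell genes Cd8a and Cd3e were 3.91-fold and 3.76-fold higher, and Itgam and the B cell gene Cd79a had ratios of 0.660 and 0.449. Macrophage markers had 4 of 10 higher and none lower, or 2 and 1 when rescaled. They summed to 666 and 1001 FPKM. Gpnmb and Mpeg1 were 17.1-fold and 2.98-fold higher, and Lyz2 and Clec4f had ratios of 0.663 and 0.932. Neutrophil markers had 9 of 10 lower, with sums of 1950 and 208 FPKM. Ltf and Ngp were 15.8-fold and 10.4-fold lower, and Cxcr2 and Csf3r had ratios of 0.321 and 0.778. Hk3, a gene of the myeloid line, was higher, most neutrophil markers were lower, and 4 of 10 macrophage markers were higher as deposited. Proliferation markers, which go with Pkm and Hk2 in many dividing cells, had 12 of 12 higher, 11 of them also when rescaled. They summed to 178 and 824 FPKM. Aurka and Ccnb1 were 7.14-fold and 6.40-fold higher, and Mki67 and Tyms 3.70-fold and 2.51-fold.

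Erythroid and platelet markers, relevant to Hk1 and Pfkp, had 1 of 10 higher and 1 lower, with sums of 1101 and 983 FPKM. Slc4a1 had a ratio of 6.70, and Alas2 and Ppbp of 0.298 and 0.756. Endothelial markers had 2 of 8 higher and none lower, or 0 and 1 when rescaled. Among all features 19.2% were higher and 5.56% lower as deposited, so the small counts of this paragraph do not stand apart from them. Lyve1 and Dnase1l3 were at ratios of 2.54 and 2.15, and Clec4g and Vwf at 0.647 and 0.672. Stellate and fibroblast markers also had 2 of 8 higher (1 after rescaling), with Col1a1 and Col3a1 at 4.20 and 2.17 and Lrat and Dcn at 0.887 and 0.960. Cholangiocyte markers had none of 6 higher and 1 lower, Krt19, 6.70-fold lower, with Krt7 at a ratio of 0.621 and Sox9 at 1.17. The part of any of these cells in the values of the 42 genes was not tested.

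Pancreatic markers, of a gland whose islets also express Slc2a2, summed to 918 FPKM with β-Gal and 13.7 with GBP5, where 6 of the 10 were at 0. All 8 measured ones were lower. Ctrb1 had 6080 reads and Cpa1 1048 with β-Gal and 0 in the other, Prss2 had 1678 and 1, and Cela1 was 8.92-fold lower. Clock genes, several of which vary with the hour of collection or with feeding, had 1 of 11 higher and 2 lower (0 and 4 after rescaling). Dbp was at 55.8 and 11 FPKM and Per3 at 10.2 and 4.09, whereas Clock was at 4.79 and 12.8 and Per1 at 9.68 and 17.6. The part of hour, feeding state or pancreatic tissue in the values of Pck1, G6pc, Gys2 and Slc2a2 was not tested.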

How the data were processed

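Liver RNA of 1 β-Gal and 1 GBP5 library was compared, grouped by the adenovirus named in the labels. The deposited values are FPKM per Ensembl gene, made by the authors, and TopHat2, HTSeq 0.6.1 and GRCm38 are named per the submitters' processing notes. Nothing is stated there of strand, of the gene annotation, of multiply matching reads or of the software behind the FPKM.

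Symbols and lengths came from GENCODE M21 for 46488 of 47442 features. FPKM times a whole-number transcript length came in whole multiples of 1 read per library total, which gave both totals. The length was the rounded mean of the M21 isoforms where that gave whole reads in both libraries (24 of the 42 genes), or else the only whole number within 1.6 times of it that did (13 genes), with a relative tolerance of 1e-07. For 5 genes (Tpi1, Pgam1, Pkm, Pcx and Slc2a1) the smallest whole reads at lengths of at least 200 bases were used as a lower limit, so their intervals are if anything too wide. Whole reads came out for 87.7% of 22538 features above 0. The procedure was tested on simulated reads. Intervals are exact (Clopper-Pearson) 95% intervals given the summed reads, and exact conditional intervals of the odds ratio for isozyme pairs. No molecular identifiers are stated, so reads may not be independent molecules and intervals cover counting error only.

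The pseudocount was 1 FPKM and the filter 1 FPKM in either library. With 1 library a group no p-value is given. All 42 genes are named, and of the other 19 lists the 2 highest and 2 lowest, except a few genes that are not reported here. Genes, lists and tests were chosen with earlier results of these data known. Promoter windows are 250 bases before to 50 after RefSeq start sites. Python 3.11.15, pandas 2.3.3, numpy 2.4.6, scipy 1.17.1 and matplotlib 3.10.9 were used.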

Additional observations from a re-analysis of the deposited data

How the results depend on the processing

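Pseudocounts of 0.1 and 5 FPKM, no filter or one of 5 FPKM, and 4 scalings were tried: the median ratio, ribosomal protein genes (72, ratio 1.44), equal sums (TPM), and equal sums without the 50 most abundant genes. The count of higher genes ran from 8 to 12 and that of lower genes from 9 to 12. No gene past 2-fold changed sign in any of them. The median of the 41 measured genes, 0.32, became -0.17 with the median ratio, -0.16 with ribosomal protein genes, 0.38 with equal sums, 0.18 without the 50 most abundant and 0.39 at 5 FPKM. For the adult liver class these scalings gave -1.60, -1.59, -1.01 and -1.22. For the widespread class they gave 0.73, 0.74, 1.29 and 1.09, with 1.37 at the 5 FPKM filter, 1.11 without a filter, and 1.32 and 0.94 at pseudocounts of 0.1 and 5 FPKM. For the shared class they gave -0.064, -0.053, 0.53 and 0.32. With the median ratio or ribosomal protein genes Hk1, Slc2a1 and Ppp1r3c lost their calls and Slc2a2 and Pygl gained one; a pseudocount of 5 FPKM ended those of Hk1, Pck2 and Gcgr, and one of 0.1 FPKM added G6pc3. Equal sums added Pfkl and ended that of Gcgr, and leaving out the 50 most abundant added Pygl and ended that of Hk1. Isozyme shifts from reads were the same by construction, since the reads were derived from the FPKM. No paired analysis was possible because each group has 1 library. Depth limits Fbp2, Eno1b, Eno2, Ldhb, Pck2, Pfkfb4 and Eno3, each with 91 or fewer reads in the β-Gal library, and Slc2a1, with at least 67.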
